A study of Homo sapiens with 10 samples.

Results

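WNT ligands, their Frizzled receptors and secreted antagonists of the pathway were followed through 4 maps of histone acetylation in a prostate cancer cell line and its drug-resistant derivative. The group comprised every GENCODE protein-coding gene whose symbol is WNT, FZD, SFRP or DKK followed by its number, with or without A or B. This gave 37 of 20033 protein-coding genes, namely 19 WNT, 10 FZD, 4 SFRP and 4 DKK genes. C4-2B is a castration-resistant human prostate adenocarcinoma cell line, from which the NE-like C4-2BER cells were derived by resistance to the drug enzalutamide, in which they are kept. C4-2BER is 1 derived line, so a difference between the cell lines can belong to resistance, to the drug in the medium or to that line, and these cannot be told apart. The study profiled H3K27ac and H3K18ac, acetyl marks of active promoters and enhancers, by ChIP-Seq in 2 libraries per mark and cell line, with 1 input per cell line. The authors merged the duplicates before calling peaks, so there is 1 value per site and mark in each cell line, no replicate error and no test of a difference. The number of reads behind a peak is unknown, and a site without a peak may still carry the mark.

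WNT proteins are secreted lipid-modified ligands that bind the extracellular domain of Frizzled, a family of membrane receptors with several membrane-spanning segments. With the co-receptors LRP5 or LRP6 the canonical branch stabilises beta-catenin, which acts with TCF/LEF factors in the nucleus, while WNT5A, WNT11 and some others mainly signal through beta-catenin-independent branches. SFRP proteins bind WNT ligands through a Frizzled-like domain, and DKK1, DKK2 and DKK4 block the co-receptors. In the prostate the pathway takes part in budding of the gland, and it has been studied in advanced prostate cancer.

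The value of a promoter was the highest fold enrichment of a peak within 1000 bp of the canonical transcription start site (TSS), a ratio to the background around it. A promoter was called increased where only C4-2BER had a peak, or where its fold was 2 times that of C4-2B or more, and called decreased in the reverse situation. The markers of the luminal prostate epithelium fitted the origin of both cell lines, since KLK3, KLK2, TMPRSS2, HOXB13 and FOXA1 carried both marks in both cell lines. Of the neuroendocrine markers, CHGA, INSM1 and NCAM1 had no H3K27ac promoter peak in either cell line, while SYP, ENO2 and SNAP25 had one in both. Of the markers of other cell types, the fibroblast genes LUM and DCN and the blood cell genes PTPRC and CD3E were without a peak in all 4 lists, while 3 of 5 fibroblast and 2 of 4 blood cell genes carried H3K18ac in both cell lines. H3K27ac was found in both cell lines at 1 of the 5 fibroblast genes, and in C4-2BER only at 1 of the 4 blood cell genes. The NE-like label therefore rests on the study, not on these marker promoters.

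Most promoters of the group carried acetylation. H3K27ac was more frequent at the Frizzled receptors than at the ligands and antagonists, whereas H3K18ac was frequent in all 4 families, with a peak in C4-2B at 10 of 10 FZD, 17 of 19 WNT, 3 of 4 SFRP and 3 of 4 DKK genes. H3K27ac peaks were present at 22 members in C4-2BER and 20 in C4-2B, against 69.6% and 69.1% of all protein-coding genes. H3K18ac peaks were present at 31 members in C4-2BER and 33 in C4-2B, against 81.1% and 83.8% of all genes. Both marks were found in both cell lines at 19 members (66.4% of all genes), which included 9 of 10 FZD and 10 of 19 WNT genes but no SFRP or DKK gene. Another 8 members carried H3K18ac in both cell lines and H3K27ac in neither (8.65% of all genes). These were the ligands WNT2, WNT3, WNT6, WNT7A, WNT10A and WNT16, the receptor FZD10 and DKK3, a divergent member of its family. No peak in any list was found at DKK2, SFRP5, WNT8A and WNT8B (13.9% of all genes). The remaining 6 members, DKK1, DKK4, SFRP1, SFRP2, SFRP4 and WNT1, had a mark in 1 cell line only.

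The promoters of the group with H3K18ac only were about as rich in CpG as those with both marks. They had a median GC content of 65.7% and a median observed-to-expected CpG ratio of 0.70, close to the 64.9% and 0.77 of the 19 members with both marks. Over all protein-coding genes the H3K18ac-only promoters were poorer in CpG, with medians of 55.2% and 0.45. The 4 members without a peak, too few for a comparison, had medians of 53.3% and 0.39, and WNT8A and WNT8B were the poorest in CpG with ratios of 0.16 and 0.19. SFRP5, with 65% GC and a ratio of 0.66, was without a peak despite a CpG-rich promoter.

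**Figure D1:**
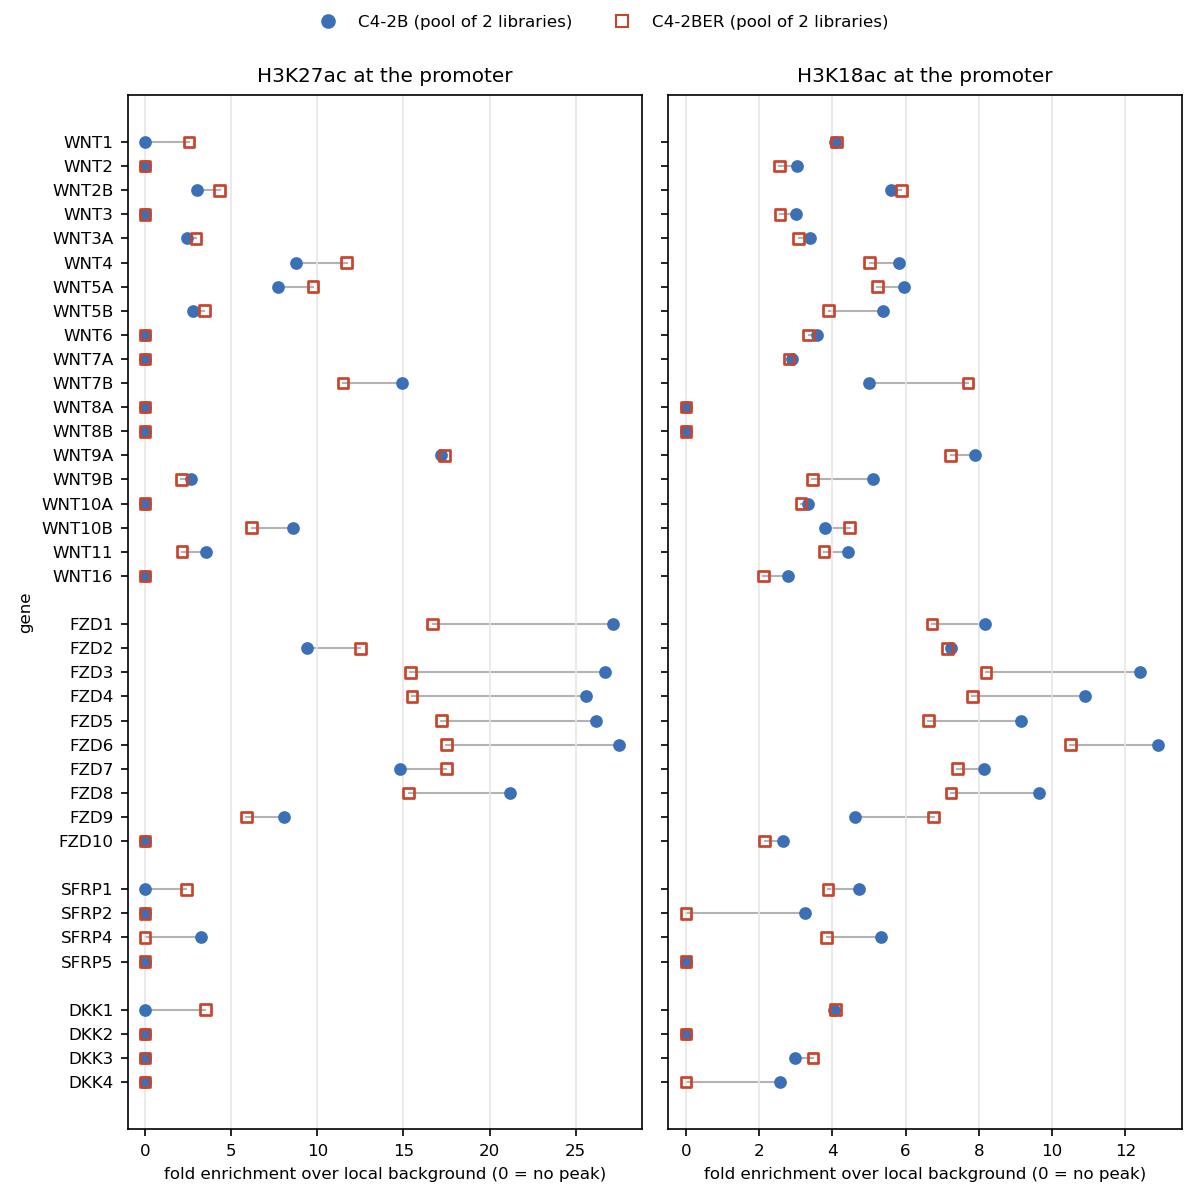
Fold enrichment of H3K27ac (left) and H3K18ac (right) at the promoters of the 37 genes, 1 row per gene, in C4-2B (filled blue circles) and C4-2BER (open red squares), each a pool of 2 libraries, with 0 for no peak and a grey line joining the pair. The families overlap, with a median H3K27ac fold in C4-2BER of 15.5 for FZD and 5.26 for WNT genes with a peak in both cell lines and a median H3K18ac fold of 7.19 and 3.77. The H3K27ac of FZD1, FZD3, FZD4, FZD5, FZD6, FZD8 and FZD9 is lower in C4-2BER, while that of FZD2 and FZD7 is higher.

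At the promoters of the ligands, H3K27ac was mostly weak and was more often higher than lower in C4-2BER. Of 10 WNT promoters with H3K27ac in both cell lines, 6 had the higher fold enrichment in C4-2BER, whereas 11.8% of all genes with a peak in both did. Their median log2 ratio of C4-2BER to C4-2B was 0.14, against -0.51 over all genes and -0.38 over the 19 members with a peak in both (95% order-statistic interval -0.65 to 0.29, across genes). Rescaled by a robust line over shared regions the WNT median was 0.28 with 6 of 10 higher, beside -0.11 and 36.4% of all genes. Centred within groups of promoters of like GC content it was 0.60 with 9 of 10 higher, beside 0.00 and 50% of all genes by construction. Counted over all annotated TSSs it was -0.21 with 5 of 12 higher, beside -0.51 and 12.2%. With a fold enrichment of at least 4, or a minimum −log10 q-value of 5, only 5 WNT promoters had a peak in both cell lines, and their median was 0.02.

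WNT4, a ligand of duct and gonad development, had an H3K27ac fold enrichment of 11.7 in C4-2BER against 8.79 in C4-2B and an H3K18ac of 5.02 and 5.82. WNT5A, the main ligand of the beta-catenin-independent branch, had an H3K27ac of 9.76 in C4-2BER against 7.71 in C4-2B and an H3K18ac of 5.23 and 5.96. In both genes H3K27ac was higher in C4-2BER, while the H3K18ac log2 ratios of -0.21 at WNT4 and -0.19 at WNT5A lay above the -0.34 of all genes and became -0.02 and 0.01 after rescaling and -0.00 and 0.15 after GC centring. WNT2B had the largest log2 ratio of the ligands, 0.53, from an H3K27ac of 4.33 in C4-2BER against 3 in C4-2B, with an H3K18ac of 5.88 and 5.59. The GC-centred ratio of WNT2B was 1.01, past the ratio for an increase. WNT9A had the strongest ligand promoter in H3K27ac in both cell lines, 17.4 in C4-2BER against 17.2 in C4-2B. Its rank among all genes with a peak nonetheless differed, at percentile 84 in C4-2BER and percentile 45.8 in C4-2B, beside a median fold of 12.7 and 18.5 over all genes with a peak in both.

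WNT7B, a ligand of branching epithelia, had an H3K27ac of 11.5 in C4-2BER against 14.9 in C4-2B, and an H3K18ac of 7.7 in C4-2BER against 5 in C4-2B, the strongest H3K18ac of a ligand in C4-2BER. In C4-2B the strongest was WNT9A, with 7.9 against 7.23 in C4-2BER. The H3K18ac peak over the WNT7B promoter was 6624 bp wide in C4-2BER and 25010 bp in C4-2B, and the fold enrichment of a broad peak is a mean over its length. A like pair was seen at FZD9, where the H3K18ac peak was 1525 bp wide with a fold of 6.76 in C4-2BER and 10408 bp wide with a fold of 4.62 in C4-2B. These were the 2 largest H3K18ac log2 ratios of the group, 0.62 for WNT7B and 0.55 for FZD9, and the part of peak width in them was not tested. WNT11, which signals mainly outside the beta-catenin branch, had the lowest H3K27ac log2 ratio of the ligands, -0.71, from 2.15 in C4-2BER against 3.51 in C4-2B. The C4-2BER value was at percentile 0.538 of all genes with a peak. In a window of 2000 bp the WNT11 ratio was -0.15, above the -0.47 of WNT10B.

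The Frizzled promoters had a higher median fold than the ligand promoters in both marks, and most of them had a lower fold enrichment in C4-2BER, as most promoters of all genes did. The median H3K27ac fold of 9 FZD promoters was 15.5 in C4-2BER against 25.6 in C4-2B, with a median log2 ratio of -0.61 beside -0.51 over all genes, and -0.07 beside 0.00 after GC centring. The strongest was FZD6, with 17.5 in C4-2BER against 27.5 in C4-2B for H3K27ac and 10.5 and 12.9 for H3K18ac. FZD7 had 17.5 in C4-2BER against 14.8 in C4-2B for H3K27ac, with an H3K18ac of 7.41 and 8.13. FZD2 had 12.5 in C4-2BER against 9.38 in C4-2B for H3K27ac, with an H3K18ac of 7.15 and 7.23. FZD2 and FZD7 were thus the only receptors with higher H3K27ac in C4-2BER as reported and after rescaling, while GC centring left 3 of 9 higher. Their percentiles among all genes with a peak were 50.7 and 84.3 in C4-2BER and 19.7 and 35.5 in C4-2B. The lowest log2 ratio was at FZD3, a receptor of axon guidance and planar polarity, with an H3K27ac of 15.4 in C4-2BER against 26.7 in C4-2B and a log2 ratio of -0.79. The windows of FZD4, FZD6, FZD7, FZD10, DKK1, WNT4 and WNT5A also hold the start of a non-coding or other gene, so their values cannot be given to one start alone. No FZD promoter reached the ratio for an increase or a decrease in either mark.

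**Figure D2:**
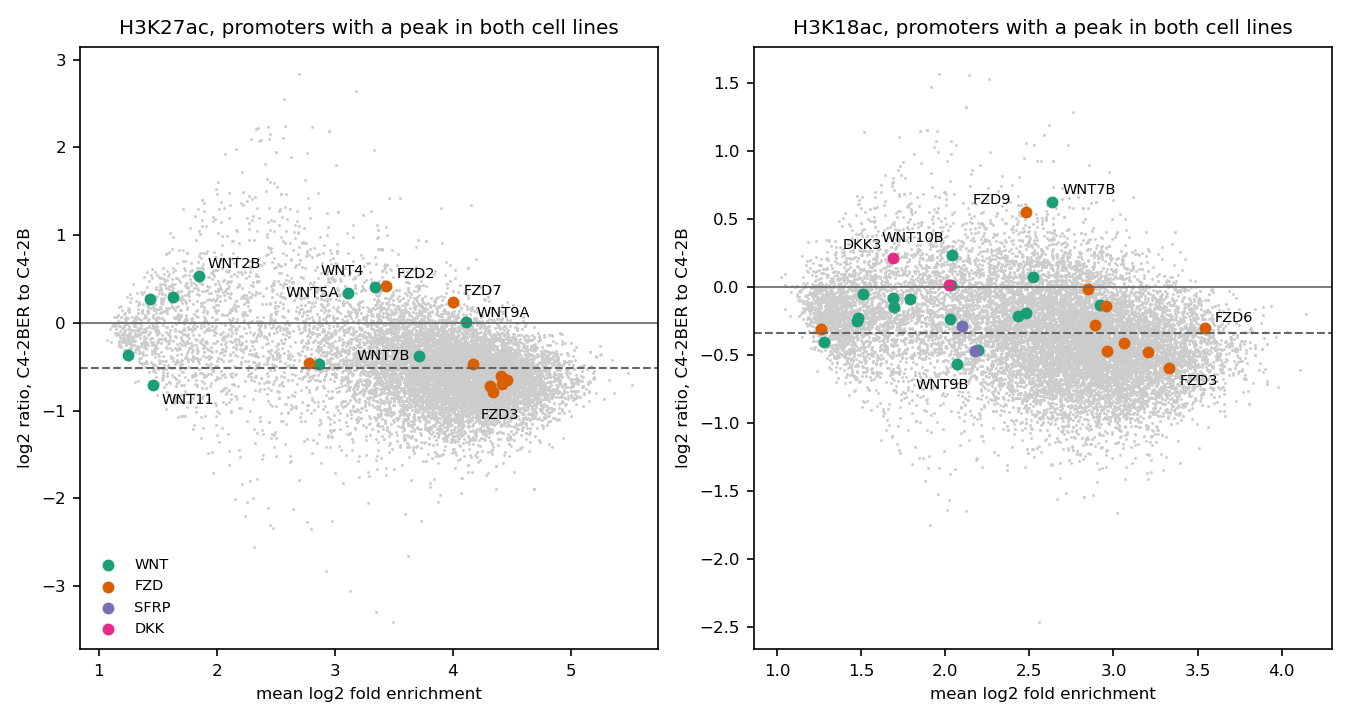
Log2 ratio of the C4-2BER fold enrichment to the C4-2B fold enrichment against the mean log2 fold enrichment of both, for promoters with a peak in both cell lines, with the members coloured by family over all protein-coding genes in grey. The dashed line is the median of all genes (-0.51 for H3K27ac, -0.34 for H3K18ac) and the full line is no difference. FZD2 and FZD7 lie above 0 in H3K27ac while the other FZD genes lie below it, and WNT7B and FZD9 lie highest in H3K18ac.

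Of the 6 members with a change 5 were antagonists, and each change was the gain or loss of a weak peak. This balance rested on weak peaks, since at a minimum −log10 q-value of 5 the 7 members called were 5 ligands, DKK1 and DKK3, and with a fold enrichment of at least 4 they were 5 ligands, SFRP1 and SFRP4. H3K27ac was increased at DKK1, SFRP1 and WNT1, which is 3 of 37 members beside 3.31% of all genes. It was decreased at SFRP4, which is 1 member beside 8.01% of all genes. H3K18ac was increased at no member (2.1% of all genes) and decreased at SFRP2 and DKK4 (6.12% of all genes). The median H3K18ac log2 ratio of 31 members with a peak in both was -0.21 (interval -0.30 to -0.08, across genes), beside -0.34 over all genes. This interval and the one for H3K27ac treat the genes as independent, hold no replicate error and are no test against all genes. After rescaling the H3K18ac median was -0.02, beside -0.14 over all genes.

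DKK1, which binds LRP5 and LRP6, had an H3K27ac of 3.49 in C4-2BER and no peak in C4-2B, with an H3K18ac of 4.08 and 4.03. It was the strongest DKK promoter in all lists with a DKK peak, and its H3K18ac was alike in the cell lines while its H3K27ac peak was found in one of them. WNT1, a canonical ligand, showed the same pattern with an H3K27ac of 2.55 in C4-2BER and no peak in C4-2B, and an H3K18ac of 4.11 and 4.07. SFRP1 had an H3K27ac of 2.39 in C4-2BER and no peak in C4-2B, with an H3K18ac of 3.88 and 4.73. SFRP4 was the mirror, without an H3K27ac peak in C4-2BER and with 3.24 in C4-2B, and its H3K18ac was 3.84 and 5.33. SFRP2 had an H3K18ac of 3.24 in C4-2B and no peak in C4-2BER, and DKK4 one of 2.56 in C4-2B and none in C4-2BER, with no H3K27ac at either. The SFRP2 loss was gone in a window of 2000 bp, where both cell lines had a peak. At a minimum −log10 q-value of 5, DKK1 alone of these 6 members kept its call, and with a fold enrichment of at least 4 none did.

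The bases upstream of the start are shown for DKK1, SFRP4 and WNT1, 3 of the 4 members whose H3K27ac promoter peak was found in 1 cell line only. They are the 250 bases before the RefSeq start on GRCh38.p14, which was also the canonical TSS in each, from chr10:52314031-52314280 on the plus strand, chr7:37916818-37917067 on the minus strand and chr12:48978072-48978321 on the plus strand. Capitals mark the TCF/LEF core CTTTGAA or CTTTGAT on either strand and the TATA box TATAAA on the strand of the gene.
DKK1: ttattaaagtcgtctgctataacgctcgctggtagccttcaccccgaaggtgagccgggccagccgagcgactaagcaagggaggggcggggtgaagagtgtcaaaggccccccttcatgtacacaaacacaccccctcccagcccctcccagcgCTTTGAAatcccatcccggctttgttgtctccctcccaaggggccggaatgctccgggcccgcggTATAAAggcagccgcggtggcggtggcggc
SFRP4: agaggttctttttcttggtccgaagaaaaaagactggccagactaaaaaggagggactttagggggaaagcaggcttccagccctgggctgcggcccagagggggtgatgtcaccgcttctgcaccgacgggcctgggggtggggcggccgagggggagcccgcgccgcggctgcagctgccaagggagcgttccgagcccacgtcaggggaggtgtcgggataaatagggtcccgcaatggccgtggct
WNT1: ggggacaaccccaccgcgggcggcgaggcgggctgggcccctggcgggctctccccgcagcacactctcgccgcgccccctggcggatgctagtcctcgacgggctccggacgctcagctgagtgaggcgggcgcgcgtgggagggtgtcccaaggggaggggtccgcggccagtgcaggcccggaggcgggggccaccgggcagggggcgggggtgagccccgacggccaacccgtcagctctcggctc
The DKK1 sequence held a TCF/LEF match that starts at -95 and a TATA box that starts at -30, counted from the TSS. The SFRP4 and WNT1 sequences held neither. RefSeq promoters were matched for 25 of 37 members, and those of DKK2, DKK3, DKK4, FZD2, FZD3, FZD6, FZD7, FZD10, SFRP1, WNT7B, WNT10B and WNT11 were not. Of the 25, DKK1 alone held a TCF/LEF match and DKK1 and FZD8 held a TATA box, beside 5.94% and 6.8% of 35116 promoters. The 3 sequences were rich in G and C, with a GC content of 62.8% at DKK1, 64.4% at SFRP4 and 78.4% at WNT1.

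Several ligands carried H3K27ac at another start than the canonical one. The members have 125 annotated TSSs, and 43 of them, in 16 genes, lie over 2000 bp from the canonical one. WNT10A, without H3K27ac at its canonical TSS, had 12.4 in C4-2BER against 15.5 in C4-2B at a TSS 12369 bp downstream. WNT3, a canonical ligand likewise without H3K27ac at its canonical TSS, had 7.32 in C4-2BER against 7.74 in C4-2B around a TSS 47245 bp downstream. WNT2B had 6.19 in C4-2BER against 3.58 in C4-2B at the TSS at -42424 bp, a log2 ratio of 0.79 that was larger than at its canonical TSS. WNT5B went the other way at its TSS at -54574 bp, with 6.3 in C4-2BER against 11.4 in C4-2B, although its canonical TSS had 3.43 and 2.79. DKK3 had 2.37 in C4-2BER against 4.23 in C4-2B at a TSS 28710 bp downstream. Each of these ratios was below the ratio for a change. Other distant starts did meet the call, each through a weak H3K27ac peak. WNT5B had 2.79 in C4-2BER and none in C4-2B around a TSS 15566 bp downstream. WNT5A had none in C4-2BER and 2.24 in C4-2B around a TSS 6386 bp downstream. The adjoining starts of WNT3 at -14341 bp and WNT9B at -18382 bp had none in C4-2BER and 2.5 in C4-2B.

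Around the genes, differences between the cell lines were far more frequent than at the promoters, as they were across the genome. Each locus was the gene body with 50 kb to each side, and overlapping peaks of both cell lines were merged into regions. For H3K27ac the loci held 228 regions, of which 59 were increased in C4-2BER and 51 decreased. These are 25.9% and 22.4%, beside 30.5% and 22.7% of all regions of the genome. For H3K18ac they held 601 regions, of which 122 were increased and 147 decreased. These are 20.3% and 24.5%, beside 26.2% and 23.5% of all regions. At a minimum −log10 q-value of 5 the H3K18ac counts turned to 52 increased and 10 decreased, and the H3K27ac counts to 23 and 10. The regions of the whole genome turned the same way, with 34.2% increased and 12.7% decreased for H3K18ac and 28.4% and 14.9% for H3K27ac. The pairs WNT3A and WNT9A, WNT6 and WNT10A, WNT1 and WNT10B, and WNT3 and WNT9B are neighbours whose loci overlap, and a region in both was counted once in these totals.

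Few H3K27ac regions changed together with H3K18ac. Of the 59 increased regions, 9 overlapped an increased H3K18ac region, which is 15.3% beside 26.7% of all increased H3K27ac regions. Of the 51 decreased regions, 1 overlapped a decreased H3K18ac region, which is 1.96% beside 22.1%. The 9 regions lay around WNT2B (2 regions), FZD4 (2 regions), SFRP4, WNT2, FZD3, FZD2 and the neighbours WNT10B and WNT1.

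The strongest increased region in both marks lay upstream of WNT2B, in an intron of CTTNBP2NL. Its H3K27ac was 10 in C4-2BER against 2.27 in C4-2B, a log2 ratio of 2.14, and its H3K18ac was 4.94 and 2.47. The next H3K27ac regions by fold were one 58545 bp downstream of the WNT5A TSS, with 6.22 in C4-2BER and none in C4-2B, and one in exon 2 of FZD4, with 5.36 in C4-2BER and none in C4-2B. The FZD4 region also gained H3K18ac, with 4.33 in C4-2BER and none in C4-2B, although the FZD4 promoter itself was lower in C4-2BER, with an H3K27ac of 15.5 and 25.6. The third increased H3K18ac region by fold lay 14883 bp downstream of the SFRP4 TSS, with 4.18 in C4-2BER and none in C4-2B.

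The decreased H3K27ac regions of highest fold were all without a peak in C4-2BER. They lay 56372 bp downstream of the WNT9A TSS with 4.4 in C4-2B, at -128783 bp from the WNT5B TSS near the start of LINC00942 with 4.11, and at -34804 bp from the WNT2B TSS with 4.01. For H3K18ac the region of highest fold, 11 in C4-2B and 5.19 in C4-2BER, was the promoter of ZFYVE27, a neighbour of SFRP5. These 2 folds were not rescaled, and their ratio lay near that for a decrease. The next regions by fold were at -174824 bp from the canonical DKK2 TSS, with 3.52 in C4-2B, and at -133097 bp from the SFRP4 TSS, with 3.25 in C4-2B, both without a peak in C4-2BER. The loci of WNT2B and SFRP4 thus held both a gain and a loss, at separate sites.

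The middle 300 bases are shown of a region at -18560 bp from the WNT11 TSS, the only one decreased in both marks. It had an H3K27ac of 3.04 and an H3K18ac of 2.41 in C4-2B and no peak in C4-2BER. The sequence is from the plus strand of GRCh38, at chr11:76224912-76225211, and no capitals appear because it held no TCF/LEF core.
WNT11 region: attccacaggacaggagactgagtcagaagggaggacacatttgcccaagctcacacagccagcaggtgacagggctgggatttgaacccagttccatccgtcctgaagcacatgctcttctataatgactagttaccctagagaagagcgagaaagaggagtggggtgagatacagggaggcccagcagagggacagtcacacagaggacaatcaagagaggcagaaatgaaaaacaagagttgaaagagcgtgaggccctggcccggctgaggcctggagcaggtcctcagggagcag
The core was found in the middle 300 bases of 6.73% of 89877 H3K27ac regions. The GC content of the WNT11 sequence was 54.3%.

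Some loci differed mostly in one direction, and WNT2 stood at one end. WNT2, a ligand without H3K27ac at its promoter, had 20 increased and 0 decreased regions over both marks together, the most increased of all members. Of its 31 H3K18ac regions 17 were increased, each found in C4-2BER alone with a fold of 1.93 to 3.16, and 9 of the 17 had their middle within the gene body. H3K18ac covered 21.8% of the locus in C4-2BER and 5.68% in C4-2B, while its promoter had 2.55 and 3.02. At a minimum −log10 q-value of 5 the locus had 5 increased and 1 decreased H3K18ac regions. WNT5B followed with 14 increased regions but also 12 decreased, and WNT2B with 11 increased and 8 decreased.

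WNT11 stood at the other end, with 19 decreased and 4 increased regions. H3K18ac covered 61.5% of its locus in C4-2B and 30.2% in C4-2BER, and 14 of 28 H3K18ac regions were decreased, each without a peak in C4-2BER. At a minimum −log10 q-value of 5 no H3K18ac region was decreased there. The next place was shared by 6 loci with 12 decreased regions each, those of WNT3, WNT5B, WNT7A, WNT7B, WNT9A and WNT9B, of which WNT7A and WNT7B were picked for description after their values were seen. WNT7A, with 11 decreased and 0 increased H3K18ac regions, was covered to 25.5% in C4-2B and 14.5% in C4-2BER. WNT7B had the widest coverage of the group, with H3K18ac over 81.8% of its locus in C4-2B and 67.4% in C4-2BER and H3K27ac over 39.2% and 32.1%.

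**Figure D3:**
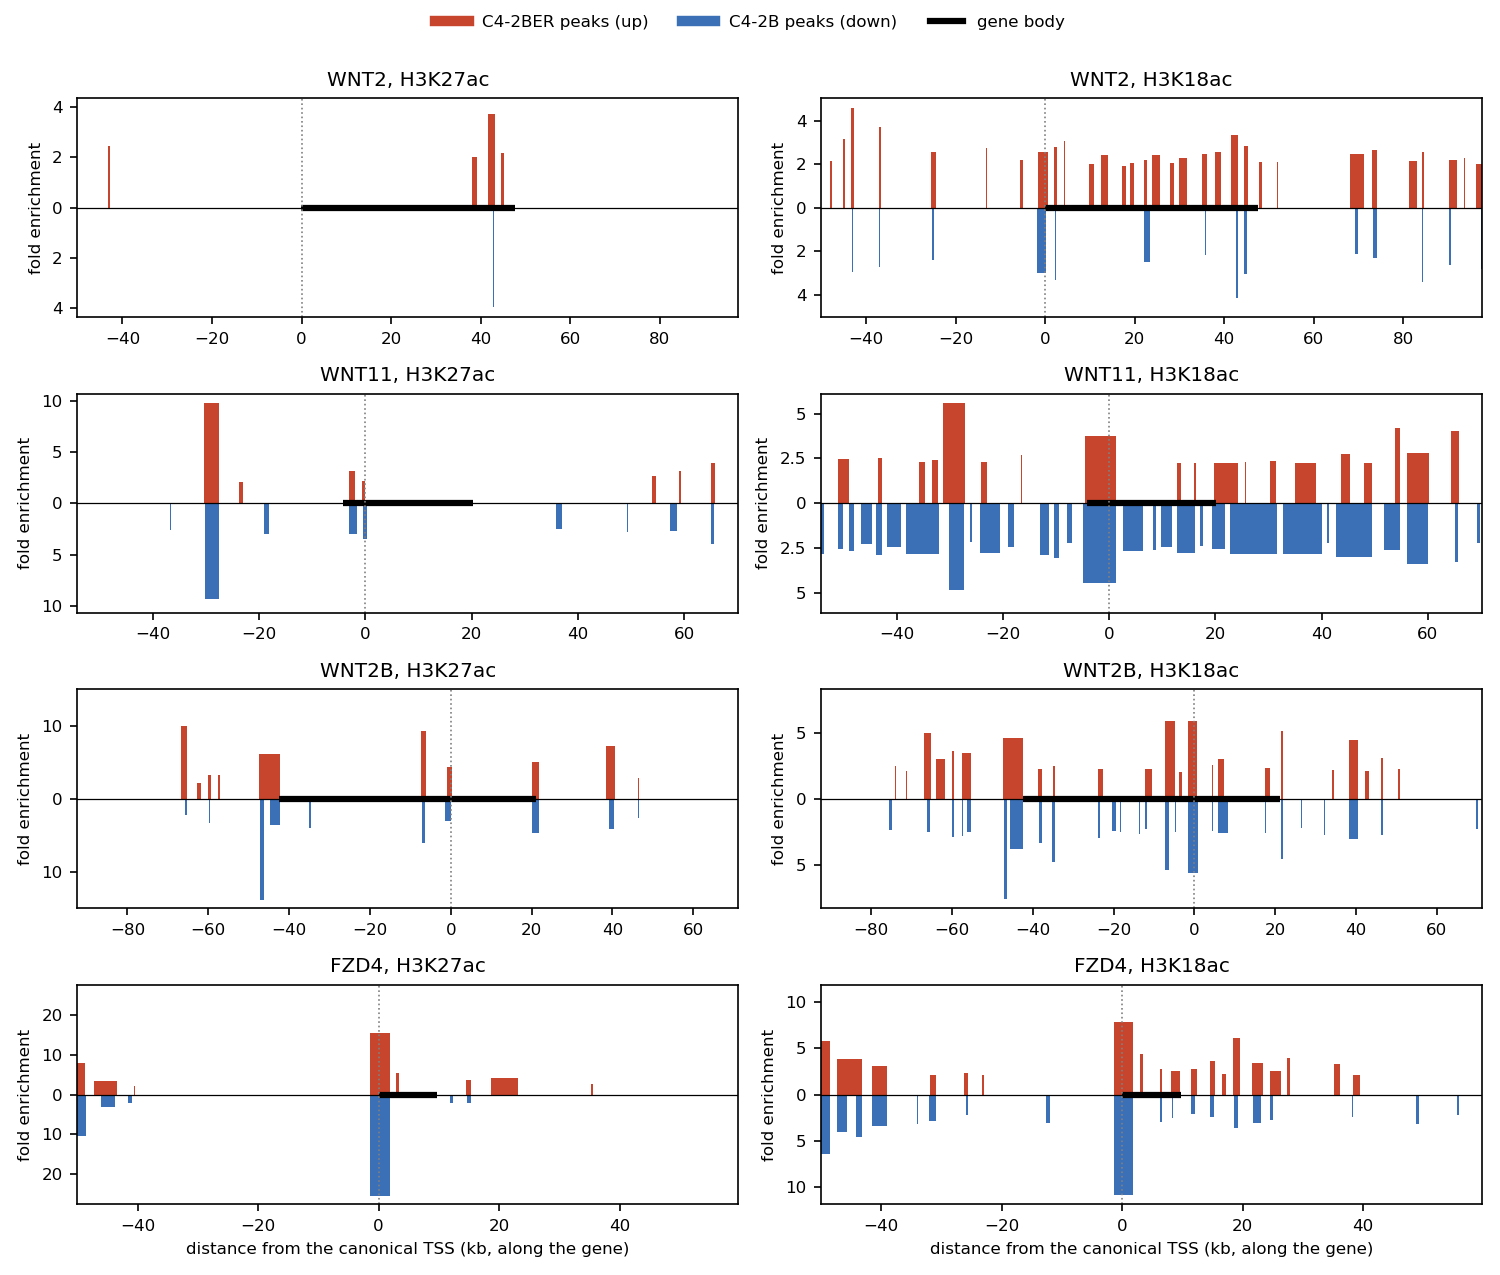
Peaks around WNT2, WNT11, WNT2B and FZD4 for H3K27ac (left) and H3K18ac (right), drawn upward for C4-2BER and downward for C4-2B by their fold enrichment, against the distance in kb from the canonical TSS along the gene, with the gene body in black. H3K18ac peaks fill the WNT2 locus in C4-2BER (21.8% covered) more than in C4-2B (5.68%), and the WNT11 locus more in C4-2B (61.5%) than in C4-2BER (30.2%).

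The direction of H3K18ac over a locus moved with its base composition, and that of H3K27ac did so less. The GC content of the 37 loci ran from 36.2% to 57.8%, with 40.3% for WNT2 and 54.4% for WNT11. Increased minus decreased H3K18ac regions had a Pearson correlation of -0.52 and a Spearman correlation of -0.59 with GC content across the 37 loci, and a Pearson correlation of -0.47 without the 2 loci farthest from the median GC content. For H3K27ac the values were -0.43, -0.32 and -0.25, with more increased regions at 14 loci, more decreased at 9 and as many of both at 14. The correlations were not computed over loci of other genes or with weak peaks left out. The loci share the same 4 lists and 4 pairs of them overlap, so these are descriptions, and the part of GC content in the changes was not tested. H3K18ac had more increased than decreased regions at 13 loci, more decreased at 20 and as many of both at 4. For neither mark were loci of other genes counted in this way. Of all H3K18ac regions of the genome, 26.2% were increased and 23.5% decreased. At a minimum −log10 q-value of 5 the 37 loci together held 52 increased and 10 decreased H3K18ac regions, so the tilt to decreases was not kept. With a fold enrichment of at least 4 they held 21 and 23.

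**Figure D4:**
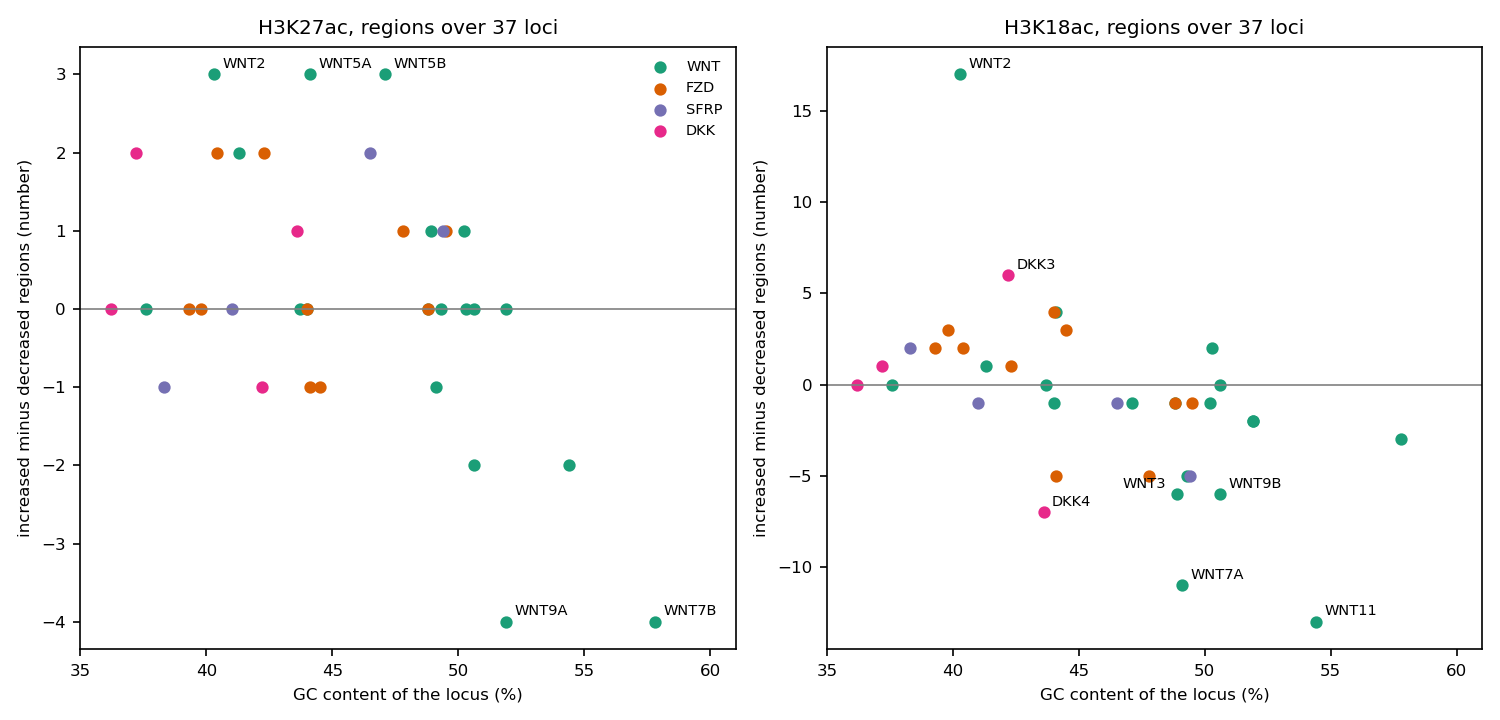
Number of increased minus decreased regions of H3K27ac (left) and H3K18ac (right) at each of the 37 loci against the GC content of the locus in percent, coloured by family. WNT2 lies highest in H3K18ac at a GC content of 40.3%, WNT11 lowest at 54.4%, and in H3K18ac the loci of high GC content lie mostly below 0. Weak peaks are included, and loci of other genes are not shown.

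Among 60 other genes of the pathway, changed promoters were found among receptors, secretion, modulators, the cytoplasm and planar polarity, and none among the nuclear genes. Decreased promoters were found only among the modulators and the cytoplasm. H3K27ac was increased at 4 and decreased at 3 of the 60, beside 3.31% and 8.01% of all genes. H3K18ac was increased at 1 and decreased at 1, beside 2.1% and 6.12%. With shares this low, a count of 0 among 13 nuclear genes does not set them apart. ROR2, a receptor tyrosine kinase for WNT5A, had an H3K27ac of 7.18 in C4-2BER against 2.58 in C4-2B. WLS, which carries WNT proteins to the cell surface, had 6.13 in C4-2BER against 2.75 in C4-2B. The Frizzled-like antagonist FRZB, with 2.84, and APC, of the complex that degrades beta-catenin, with 2.17, had a peak in C4-2BER only. CTNNB1, which encodes beta-catenin, was decreased from 46.4 in C4-2B to 22.2 in C4-2BER. Its log2 ratio of -1.06 lay near the ratio for a decrease, beside a median of -0.51 over all genes, and was not rescaled. WIF1, a WNT-binding antagonist, with 2.64, and LGR6, an R-spondin receptor, with 2.51, had a peak in C4-2B only. The 13 nuclear genes all carried both marks in both cell lines, and LEF1 had 10.7 in C4-2BER against 7.55 in C4-2B. The H3K18ac changes were a peak of 2.64 in C4-2BER only at PRICKLE2, of planar polarity, and one of 2.51 in C4-2B only at RSPO3, an R-spondin. The median H3K27ac log2 ratio of the list was -0.41, beside -0.51 over all genes, and 10 of 47 genes with a peak in both cell lines were higher in C4-2BER, beside 11.8% of all genes.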

How the data were processed

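H3K27ac and H3K18ac ChIP-Seq of C4-2B and C4-2BER was analysed from the 4 deposited peak lists. Per the labels and methods, the authors trimmed the reads with Trimmomatic, aligned them to hg38 with bowtie2 (version 2.2.3 per the submitters' processing notes), removed low-quality, blacklisted and duplicate alignments, merged the replicates and called broad peaks with macs2. The methods of the paper give another version of bowtie2. Whether the input served as the control is not given in the sources used here. The deposited lists give each peak a fold enrichment (a ratio to local background), a −log10 p-value and q-value, and a display score, which was not used. No read counts are given, so the depth is unknown. Folds are scaled list by list, and ratios of C4-2BER to C4-2B can thus hold unequal background.

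Promoters and loci were taken from GENCODE release 44, of the same build. Groups followed the labels, and no test was made because each list is 1 pooled value. Members and gene lists were chosen with earlier results of these data known. The 4 values were given for members with a change in either mark and for the strongest promoter of each family in each list. Loci were those with the most increased or decreased regions, single regions were the 3 of highest fold in each direction and mark, and other values named in the text were chosen after they were seen. Promoter sequences were taken from RefSeq (GRCh38.p14), with genes on chromosome 8 left out. Some marker genes and the sequence of a region are not reported here. The promoter values and the region counts of the members were recomputed under those of 12 alternatives that applied to each. The markers, the other pathway genes, the overlap of the marks, coverage, correlations, single starts and sequence matches were not recomputed. Calls, merging and rescaling were tested on simulated data. The software was Python 3.11.15, with pysam 0.24.0 for sequences, scipy 1.17.1 for correlations and pandas 2.3.3, numpy 2.4.6 and matplotlib 3.10.9 for the rest.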

Additional observations from a re-analysis of the deposited data

How the results depend on the processing

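No paired analysis was possible because the authors pooled the replicates before they called peaks, and leaving out a replicate was not possible for the same reason. With a fold enrichment of at least 4, the numbers of increased and decreased promoters were 1 and 0 in H3K27ac and 1 and 5 in H3K18ac, and those of regions were 15 and 13 for H3K27ac and 21 and 23 for H3K18ac. Of all genes, 1.93% and 7.01% were then increased and decreased in H3K27ac and 1.62% and 6.12% in H3K18ac, and of all regions 19.9% and 19.3% in H3K27ac and 19.1% and 24.2% in H3K18ac. Under a minimum −log10 q-value of 5, the H3K18ac promoters were 2 and 1, and the regions were 23 and 10 in H3K27ac and 52 and 10 in H3K18ac. Of all genes, 2.64% and 6.74% were then increased and decreased in H3K27ac and 2.4% and 3.62% in H3K18ac. The H3K27ac promoters then numbered 3 and 1 as before but were other genes, with WNT2B and WNT5B beside DKK1 and with WNT11 in place of SFRP4. With equal numbers of the highest-fold peaks, 3 H3K27ac promoters were decreased (8.24% of all genes), and with a window of 2000 bp 1 H3K18ac promoter was (5.76%). Rescaling by a robust line moved the median H3K18ac log2 ratio of the members to -0.02 and the members higher in C4-2BER from 7 to 14 of 31, beside -0.14 and 32% over all genes. Centring within 20 groups of GC content turned the medians to 0.08 for H3K27ac and 0.12 for H3K18ac, with 12 of 19 and 21 of 31 members higher, beside medians of 0.00 over all genes by construction. With a flank of 10 kb, the regions were 27 and 23 in H3K27ac and 50 and 66 in H3K18ac, since fewer bases were counted. Other causes were not tested. Of 507 values of single promoters, 455 kept their call and 52 gained or lost one or a peak. A turn to the opposite call, seen in 0 of them, could hardly arise, since each call was a peak in 1 cell line only. A window of 500 bp and the overlap-weighted mean left nearly all values as they were. The 455 therefore say little about stability. Of 168 counts at single loci, 119 stayed within 1.5 times. The counts rest largely on weak peaks, and the depth behind them is unknown.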
